A study of Mus musculus with 3 samples.

Results

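The ligands and receptors of the fibroblast growth factor (FGF) and platelet-derived growth factor (PDGF) families were followed in mouse embryonic fibroblasts (MEF) with and without n-butylidenephthalide (BP), a small molecule from Angelica sinensis. The members were chosen by name: every numbered Fgf gene, Fgfr1 to Fgfr4, Fgfrl1, Fgfbp1, Pdgfa, Pdgfb, Pdgfc, Pdgfd, Pdgfra, Pdgfrb and Pdgfrl. This gave 35 genes with 54 probes on 99 spots, of 35451 gene names, 55681 gene probes and 59305 gene spots on the array. In all 3 scanner files, 53 of the 54 probes carried these names, and 1 of the Fgf13 probes was named by a transcript identifier in the file of the control array. There were 19 genes with 1 probe, 13 with 2 and 3 with 3.

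FGFs and PDGFs are secreted proteins that bind receptor tyrosine kinases at the cell surface, make the receptors pair and phosphorylate each other, and so switch on the RAS-ERK, PI3K-AKT and PLC-gamma pathways. Most FGFs act on nearby cells and need heparan sulphate beside the receptor, a few act as hormones through klotho coreceptors, and the FGF homologous factors stay inside the cell. PDGFs are dimers that drive growth and migration of mesenchymal cells, and the PDGF receptors are among the genes by which fibroblasts are known.

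Total RNA of MEF of the C57BL/6 strain was hybridized to Agilent mouse arrays in 1 colour, 1 array per condition and 3 in all. The cells were grown in serum-containing medium alone (control; the label records no treatment, whereas the study's text names DMSO as the control), with 10 µg/ml BP (BP10) or with 40 µg/ml BP (BP40). The time of treatment, the passage and the number of embryos behind a culture are not given in the sources used here. There were no replicates, so each ratio below sets 1 array against 1 array, and no p-value or spread between cultures can be given.

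All 3 arrays lay on 1 slide, and the control array was scanned in another session than the BP arrays, which means that an effect of BP and one of the scan cannot be told apart in any ratio against the control. Spots well above background made up 68.3 to 81.7% of the gene spots, the highest share on the control array, the median signal was 123 to 224, and 0 spots were saturated. A level is the log2 signal relative to the 75th percentile of the array's gene spots, so that 0 is a signal at that percentile, and a ratio is a difference of 2 levels. Of 8 fibroblast marker genes, 8 were well above background on every array, as were 7 of 7 macrophage and 6 of 6 neural markers. Of the endothelial and the epithelial markers 4 of 6 were so on each array, of the cartilage markers 4 of 5, and of the 6 skeletal muscle markers 5 or 6. Levels of different probes are not comparable, so these counts give no share of cells, and the part of other cell types in the ratios was not tested.

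A call meant a difference of 2-fold or more for which the probe was well above background on 1 or both of the arrays compared. At BP10, 6 of the 35 genes were called (17.1%), beside 13.0% of all gene names. Fgfr4 and Fgf20 were higher (2 genes, 5.71% of members, beside 2.68% of all names) and Fgf5, Fgf9, Fgf13 and Fgf21 lower (4 genes, 11.4%, beside 10.3%). At BP40, 4 genes were called (11.4%, beside 11.6%), with Fgf14 and Fgf15 higher (2 genes, beside 2.59%) and Fgf21 and Pdgfrl lower (2 genes, beside 9.00%). Between the BP arrays, which were scanned together, Fgf5 and Fgf22 were higher at BP40 (2 of 35, 5.71%, beside 1.88%) and 0 members were lower (beside 1.77%), while 3.65% of all names were called in either direction. With this scaling the share called at BP40 thus lay near that of all genes, and in the other comparisons it differed from it by no more than a few genes. Shares under other processing are given below, and this comparison with all names depended on the processing. With this scaling Fgf21 was the 1 gene called the same way at both doses, but the ratios at BP10 and BP40 share the control array. Under quantile normalization Fgf14 and Fgf15 were also called higher at both doses. With the percentile taken over probes above background on all arrays, Fgf9 was also called lower at both.

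The median log2 ratio over the 35 genes was -0.20 at BP10, beside -0.23 for all gene names, 0.00 at BP40, beside -0.11, and 0.02 for BP40 against BP10, beside 0.06. With genes that were dim on 1 array set at their bound, the medians of members were -0.12, 0.00 and 0.02. Well above background on all 3 arrays were 28 genes, 5 were so on 1 or 2 arrays (Fgf4, Fgf12, Fgf15, Fgf17 and Fgf20), and Fgf3 and Fgf16 on none. Under quantile normalization, which gives the 3 arrays equal distributions, the median of members was 0.11 at BP10 and 0.22 at BP40. Members called higher and lower then numbered 4 and 3 of 35 at BP10, beside 9.8% of all names called in either direction. At BP40 they numbered 3 and 3, beside 9.3%. Over all genes called, 20.7% were higher at BP10 and 22.3% at BP40, and 53.2% and 54.7% under quantile normalization.

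**Figure D1:**
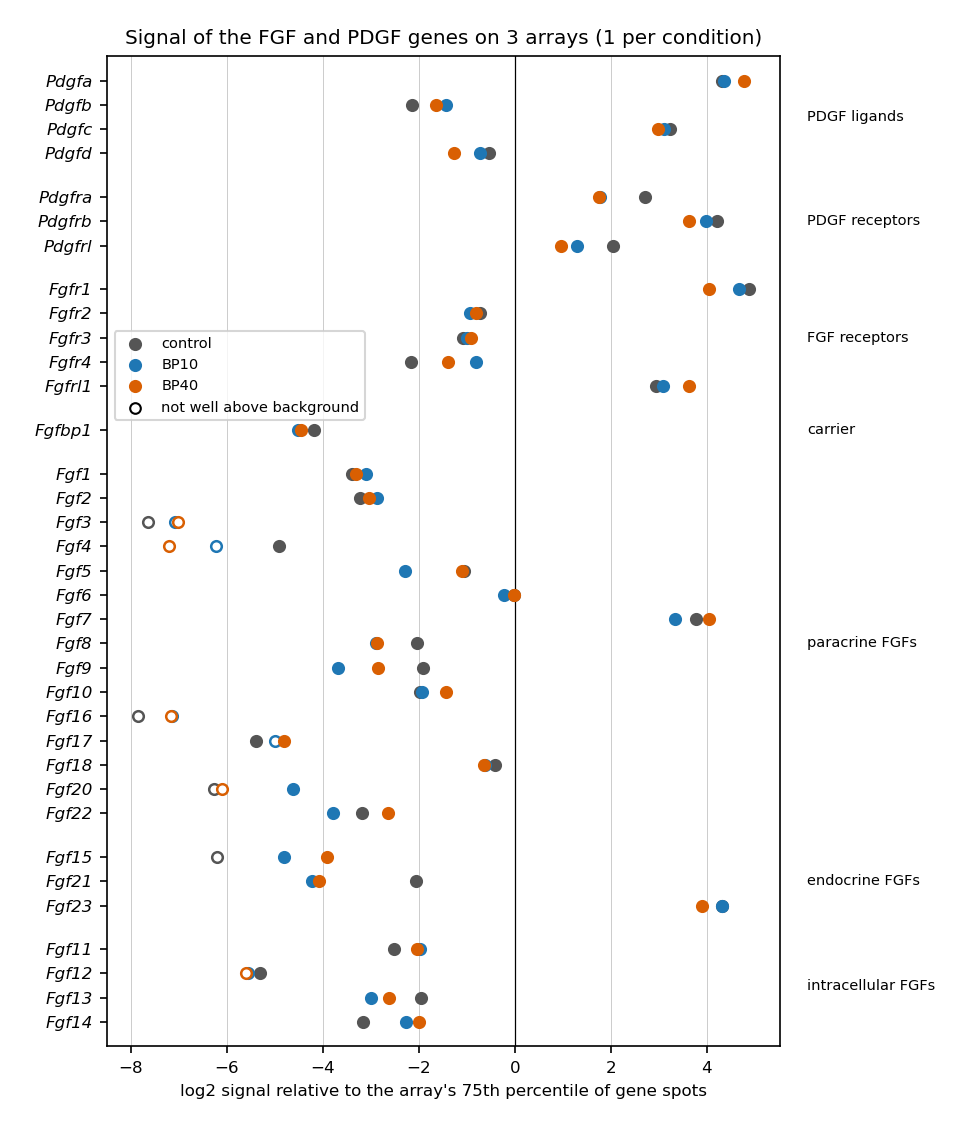
Levels of the 35 FGF and PDGF genes by role (rows) on the control, BP10 and BP40 arrays, as log2 signal relative to the 75th percentile of gene spots (x axis); each point is 1 array and open points were not well above background. The 3 points of most genes lie close together, as for Pdgfc (3.23, 3.11 and 2.98), whereas those of Fgf21 and Fgf9 do not; levels of different probes are not comparable with each other.

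Among the PDGF receptors the levels on both BP arrays were below the control for all 3 genes. The median ratio of all gene names was also below 0, at -0.23 at BP10 and -0.11 at BP40, so this direction is not particular to them. Pdgfra, the alpha receptor that binds every PDGF chain but PDGF-D, was measured by a probe at chr5:75593888-75593947 (mm9, plus strand) printed on 10 spots of each array. Its level was 2.70 ± 0.14 in the control, 1.77 ± 0.06 at BP10 and 1.75 ± 0.06 at BP40 (SD between 10 spots of 1 array). The spots ran from 2.45 to 2.88 on the control array, from 1.69 to 1.85 at BP10 and from 1.66 to 1.85 at BP40, so the control spots did not overlap those of either BP array. The share of all probes printed 10 times for which this holds is not given here. The log2 ratio was -0.93 at BP10 (SE 0.05 over spots) and -0.96 at BP40 (SE 0.05), or 1.91-fold and 1.94-fold lower, just under the 2-fold line. These errors cover the printing and reading of spots within an array and nothing of the variation between cultures. BP40 and BP10 differed by -0.02 (SE 0.03), and their spots overlapped. With quantile normalization the ratio at BP40 was -1.01, past the line, and with normexp it was -1.01 as well.

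Pdgfrl, a receptor-like protein without the kinase part, had levels of 2.05 in the control, 1.29 at BP10 and 0.95 at BP40. Its ratio was -0.77 at BP10, and at BP40 -1.10 (2.14-fold lower), the 1 PDGF receptor gene called. Under the normexp background correction this ratio came just short of 2-fold and the call was lost. Pdgfrb, the beta receptor of PDGF-B and PDGF-D, had levels of 4.22, 3.98 and 3.63, with ratios of -0.24 and -0.60. For Pdgfrb and Pdgfrl the BP40 array was the lowest of the 3, while the Pdgfra levels of both BP arrays were equal within the SE of the spots. All 3 ratios stayed below 0 at both doses under each normalization tried. The Pdgfrb ratio at BP10 lay near the median of all names. It was -0.12 after subtraction of the median ratio of genes of like brightness.

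Of 8 fibroblast markers, 2 were called lower at BP10 (25.0%, beside 10.3% of all names), 3 at BP40 (37.5%, beside 9.00%), and 0 higher. Lum, a matrix proteoglycan, fell by 3.19 and 2.21 on the log2 scale, Dcn, another, had ratios of -1.05 and -0.49, the collagen gene Col3a1 -0.75 and -1.22, and Postn -0.70 and -1.03. The other fibroblast markers stayed within 2-fold, and Col1a2 had a ratio of 0.10 at BP40. Their summed level on the linear scale, the same genes on each array, was 1231 in the control, 836 at BP10 and 907 at BP40. Pericytes and smooth muscle cells also carry PDGF receptors. Of 6 of their markers, 2 were called higher at BP10 (beside 2.68% of all names), and 0 were called at BP40 (beside 11.6%). For BP40 against BP10, 3 were called lower (beside 1.77%) and 0 higher (beside 1.88%). The genes called were Rgs5, with ratios of 1.47 and -0.51 against the control, Cspg4 with 1.61 and 0.50, and Myh11 with 0.56 and -0.78. The others were not called: Notch3 had ratios of 0.28 and 0.81, Acta2 -0.08 and 0.14, and Mcam -0.35 and -0.02. Notch3, Acta2 and Mcam were higher at BP40 than at BP10, by 0.53, 0.22 and 0.32. In RNA of a whole culture, fewer cells of a type and less RNA per cell cannot be told apart, and the part of the cell mixture in the receptor ratios was not tested.

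**Figure D2:**
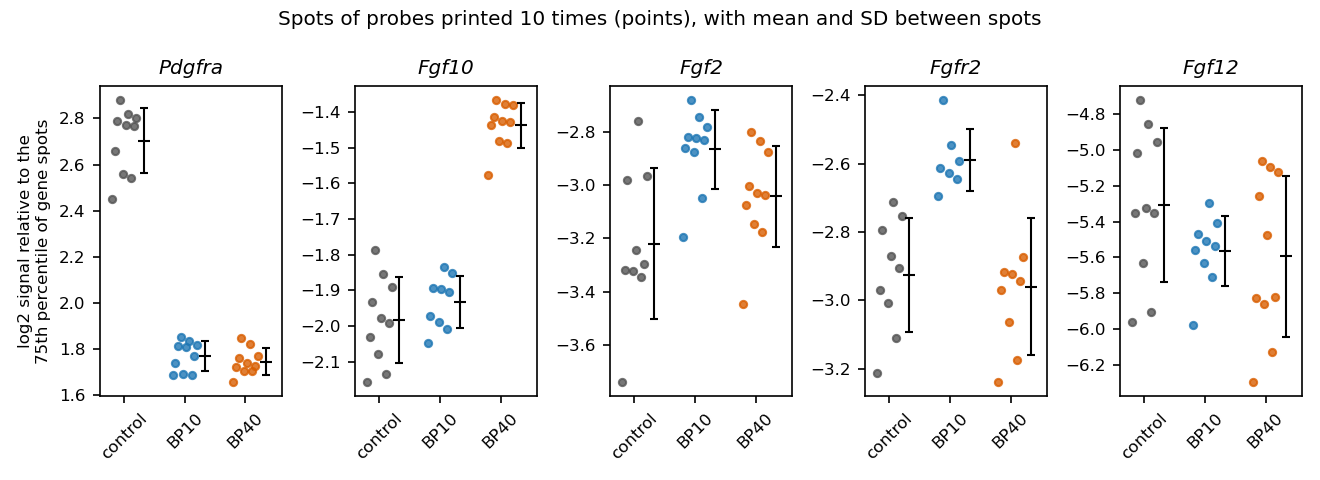
Levels (log2 relative to the 75th percentile of gene spots, y axes of different range) of the probes of Pdgfra, Fgf10, Fgf2, Fgfr2 and Fgf12 that are printed 10 times; points are spots of 1 array, without those marked as outliers, and bars are the mean ± SD between spots. The Pdgfra spots of the control array lie above those of both BP arrays and the Fgf10 spots of BP40 above both others, while the spots of Fgf2 and Fgf12 overlap. The Fgfr2 spots of BP10 lie above those of the control, whereas the other Fgfr2 probe had a log2 ratio of -0.22 there.

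The 4 PDGF chains were well above background on every array, and 0 of 4 were called in any comparison. Pdgfa, the chain of PDGF-AA, had levels of 4.33 in the control, 4.37 at BP10 and 4.77 at BP40, with ratios of 0.04 and 0.44. Its other probe, which shares 51 bases with it, gave 0.16 and 0.60. The BP40 array was thus the highest on both probes, by less than 2-fold. Pdgfc, a chain that must be cleaved before it binds, had levels of 3.23, 3.11 and 2.98 and ratios of -0.12 and -0.24. Pdgfd, which is cleaved likewise and binds the beta receptor, had levels of -0.53, -0.73 and -1.26, with ratios of -0.20 and -0.73. The BP40 array was the lowest for both of these chains.

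The probes of Pdgfb, the chain that binds both receptors, disagreed. The probe used had levels of -2.15, -1.43 and -1.64 and ratios of 0.72 and 0.51. The other was at -3.92 in the control, not well above background on either BP array, with log2 ratios of -1.15 or lower at BP10 and -1.14 or lower at BP40. No direction can be given for Pdgfb from these arrays.

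The FGF receptors held the 1 receptor gene that was called higher. Fgfr4, the receptor through which FGF15 acts on liver cells, had levels of -2.17 in the control, -0.80 at BP10 and -1.40 at BP40. Its ratio was 1.37 at BP10 (2.58-fold higher) and 0.77 at BP40, so the middle array was BP40. The other Fgfr4 probe was at -4.34, -2.37 and -5.30, higher by 1.96 at BP10. At BP40 that probe was not well above background, at least 0.72 below the control and at least 2.68 below BP10 on the log2 scale. Both Fgfr4 probes were highest on the BP10 array, and they disagreed in sign for BP40 against the control.

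Fgfr1 is the FGF receptor usual in mesenchymal cells, and its 3 probes also parted. The probe used, at chr8:26685072-26685131, had levels of 4.89, 4.68 and 4.04 and ratios of -0.21 and -0.85. The probe at chr8:26685820-26685879 had levels of 0.43, 0.41 and 0.48, with ratios of -0.02 and 0.05. The probe at chr8:26684061-26684120 had levels of 0.88, 1.78 and 1.33, with ratios of 0.89 and 0.45. The 3 lie on the plus strand of mm9 within 1 gene and differ by up to 1.30 in their ratio at BP40, where the median of their ratios was 0.05 and not -0.85. The 30-base stretches around the longest tandem repeat of each probe are shown because they tell these probes apart; capitals mark the repeat, a unit of up to 4 bases copied end to end.
Fgfr1 probe used: tattaaaaacaaacgaacAGAAAGAAAaaa
Fgfr1 probe with ratios near 0: ttgtttgtTTGGTTGGTTGGTTGGTctttt
Fgfr1 probe with ratios above 0: cgttcaagcagtTGGTGGaagacctggacc
The TTGG run of the probe with ratios near 0 was 17 bases long, and 0.510% of all probes hold a repeat of that length or more. The median of 0.05 at BP40 is the ratio of this probe, and whether it reports Fgfr1 RNA was not tested.

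The other FGF receptors stayed within 2-fold. Fgfrl1, a receptor that binds FGFs but has no kinase, had levels of 2.94, 3.09 and 3.63, with ratios of 0.15 and 0.69. Fgfr3 had levels of -1.08 in the control and -0.90 at BP40 on the probe used, with BP10 between them and ratios of 0.08 and 0.18, and -0.16 and -0.51 on its other probe. Fgfr2, the receptor of FGF7 and FGF10 in epithelia, had levels of -0.71, -0.94 and -0.81, with ratios of -0.22 and -0.10. Another Fgfr2 probe, which shares 42 bases with it and has 10 spots, of which 7 to 9 were usable, gave -2.93 ± 0.17, -2.59 ± 0.09 and -2.96 ± 0.20 (SD between spots). Its ratio was 0.34 (SE 0.07 over spots) at BP10 and -0.03 (SE 0.09) at BP40, so that probes sharing most of their bases still differed by 0.56 at BP10. The BP10 spots of this probe did not overlap those of the control, although the probe used had a ratio below 0 there. Spots that do not overlap thus need not mean that another probe of the gene gives the same direction.

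**Figure D3:**
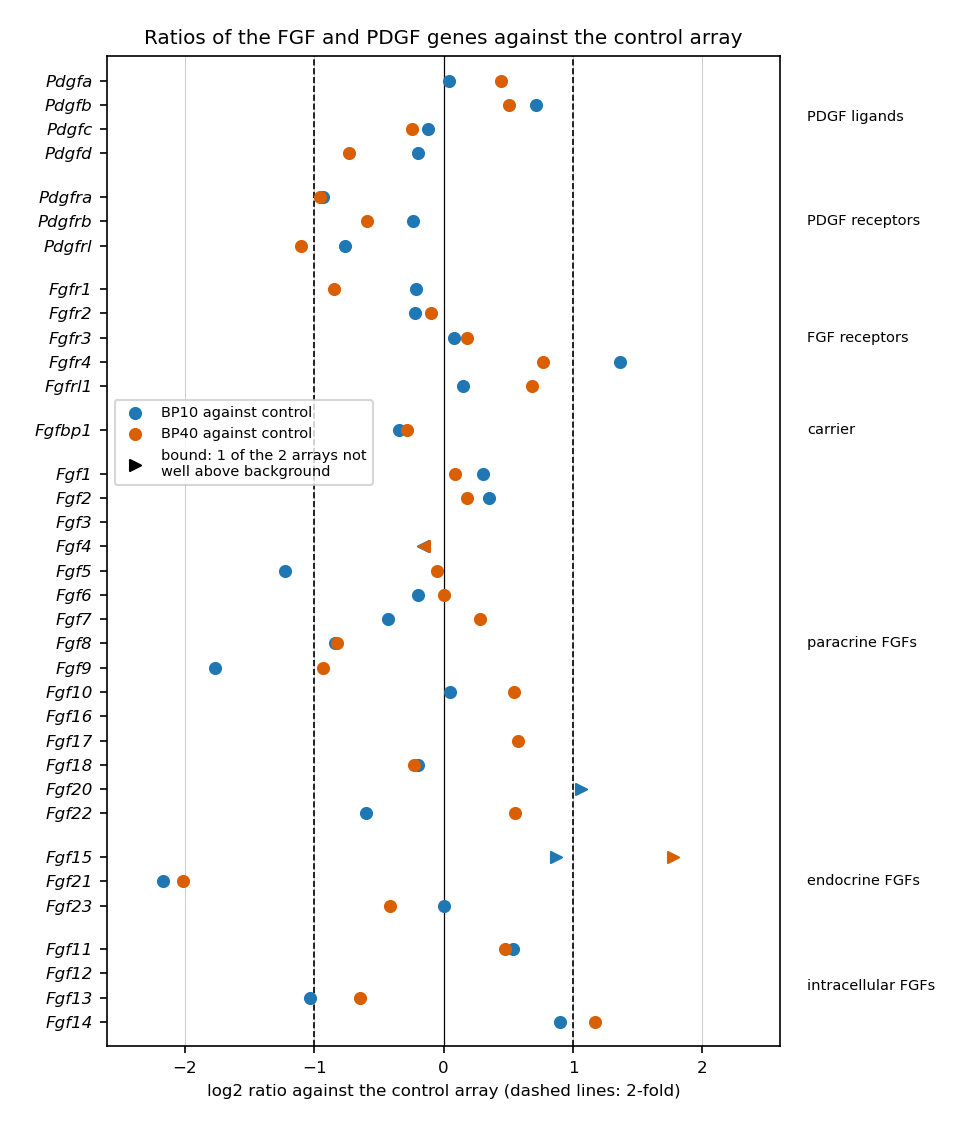
Log2 ratio of each FGF and PDGF gene (rows, by role) for BP10 and BP40 against the same control array (x axis), with dashed lines at 2-fold; triangles are bounds where 1 of the 2 arrays was not well above background, and genes with no measurable ratio have no point. The 3 PDGF receptors lie left of 0 at both doses, Fgf21 lies near -2 at both, and Fgfr4 lies right of the line at BP10 only. The median of all gene names, not drawn, was -0.23 at BP10 and -0.11 at BP40.

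Of the 15 FGFs that act on nearby cells, 10 were well above background on all arrays. Fgf7, a mesenchymal factor for epithelia, had levels of 3.78 in the control, 3.35 at BP10 and 4.06 at BP40, with ratios of -0.43 and 0.28. Fgf10, which acts on the same receptor, was read on 10 spots (9 on the BP10 array) at chr13:119580365-119580424 (mm9, plus strand). Its level was -1.98 ± 0.12 in the control, -1.93 ± 0.07 at BP10 and -1.44 ± 0.06 at BP40 (SD between spots). The ratio was 0.05 (SE 0.05 over spots) at BP10 and 0.55 (SE 0.04) at BP40, and BP40 was higher than BP10 by 0.50 (SE 0.03). The BP40 spots did not overlap those of the other arrays, and the difference was 1.46-fold against the control, under the line of a call. Fgf2, the basic FGF, had levels of -3.22 ± 0.28, -2.86 ± 0.15 and -3.04 ± 0.19 (SD over 9 to 10 spots). Its ratios were 0.35 (SE 0.11) and 0.18 (SE 0.11), and the spots of the 3 arrays overlapped.

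The paracrine FGFs that were called were Fgf9, Fgf5, Fgf22 and Fgf20. Fgf9, a mesenchymal growth signal of the lung and gonad, had levels of -1.91, -3.68 and -2.84, and it fell by 1.77 at BP10 on the log2 scale (3.41-fold), with a ratio of -0.93 at BP40. Fgf5, the factor that ends hair growth, had levels of -1.06, -2.29 and -1.11. It fell by 1.23 at BP10 (2.34-fold), had a ratio of -0.05 at BP40, and was 1.18 higher at BP40 than at BP10 (2.26-fold). For both genes BP10 was the lowest array, and the Fgf5 levels of control and BP40 were nearly the same. Under normexp the Fgf5 ratio at BP10 was -0.99 and its call was lost. Fgf22, a factor of nerve contacts, had levels of -3.19, -3.78 and -2.64, so that BP40 was 1.15 above BP10 (2.21-fold) while each ratio against the control, -0.60 and 0.55, was within 2-fold. The Fgf22 call was lost under normexp (0.65) and with the median of the probes (0.77), and the other Fgf22 probe had ratios of -0.95 (a bound) and -0.54. Fgf20, a factor of inner ear and kidney development, was well above background only on the BP10 array, with levels of -6.27, -4.62 and -6.10, at least 2.09-fold higher at BP10. This call, too, was lost under normexp, with a bound of 0.80 on the log2 scale. Its other probe was not well above background on any array.

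Fgf8, Fgf6, Fgf18 and Fgf1 stayed within 2-fold of the control on the probe used. Fgf8, a patterning factor of limb and brain, had levels of -2.04, -2.88 and -2.87, with ratios of -0.84 and -0.83. Fgf6, a muscle factor, had levels of -0.01, -0.22 and -0.01 on the probe used. The other Fgf6 probe was far dimmer, at -5.43 in the control and not well above background on either BP array. Which of them reports Fgf6 RNA was not tested. Fgf18, a factor of cartilage and bone, had levels of -0.41, -0.61 and -0.64. Fgf1, the acidic FGF, had levels of -3.40, -3.09 and -3.31, with ratios of 0.31 and 0.09. Its other probe was above background at BP40 only, higher than the control by at least 1.01 there. Fgfbp1, a carrier that frees FGFs from the matrix, had levels of -4.18, -4.52 and -4.46. Fgf4, Fgf12, Fgf17, Fgf3 and Fgf16 had levels between -7.85 and -4.81 and were not called. Fgf4 was well above background in the control alone, so that its log2 ratios are bounds of -0.16 or lower at BP10 and -0.15 or lower at BP40, and whether it differed by 2-fold was not measurable. Fgf17, well above background on the control and BP40 arrays, had a ratio of 0.57 at BP40, and of 1.26 under quantile normalization, where it was called higher.

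Fgf21, an endocrine FGF, had the largest ratio at each dose among the members well above background on both arrays compared. A hormone of fasting and stress made mostly in the liver, it had levels of -2.06 in the control, -4.22 at BP10 and -4.07 at BP40, all well above background. It fell by 2.17 at BP10 (4.49-fold) and by 2.01 at BP40 (4.03-fold) on the log2 scale, and the BP arrays differed by 0.16. Under the alternatives its ratio lay between -2.18 and -1.40 at BP10 and between -2.09 and -1.23 at BP40, so it was past 2-fold under each. The gene has a single probe, which holds a tandem repeat, shown beside that of Fgf23. The repeat is shorter than the 16 bases from which probes were left out in one alternative, so the alternatives do not bear on it, and whether the probe reports Fgf21 RNA was not tested. Fgf15, the gut hormone that curbs bile acid synthesis, had levels of -6.20, -4.81 and -3.91 and was not well above background in the control. It was at least 0.87 higher at BP10 and at least 1.77 higher at BP40 on the log2 scale (at least 3.42-fold), with BP40 0.90 above BP10. Klb, the coreceptor that FGF21 and FGF15 need, had levels of -2.74, -3.58 and -3.72, and Kl, the coreceptor of FGF23, was not well above background on any array.

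The probes of Fgf23, a bone hormone that lowers phosphate, parted completely. The probe used, at chr6:127030758-127030817 (mm9, plus strand), had levels of 4.32, 4.33 and 3.91, with ratios of 0.00 and -0.42, while the probe at chr6:127031289-127031348 was not well above background on any of the 3 arrays. The stretches below are shown because the probe that gave signal holds an uninterrupted CA repeat of 20 bases, and the Fgf21 probe at chr7:52869305-52869364 (minus strand) a TTAT repeat of 14 bases; capitals mark the longest tandem repeat.
Fgf23 probe used: cCACACACACACACACACACAtacatgtaa
Fgf23 probe without signal: ggttgacttgtaATATATtctaagcgaatg
Fgf21 probe: tatttatcTTATTTATTTATTTtagttttt
Pdgfra probe, for comparison: tgTATATATctgttgctatgtagacttgga
Of all 55126 probes with a value on each array, 0.354% hold a repeat of 20 bases or more and 0.821% one of 14 or more. Of the 321 probes with a repeat of at least 16 bases, 95.6% were well above background on all 3 arrays, beside 63.9% of all probes. The level of Fgf23 thus rests on a probe of a kind that nearly always gave signal, and whether it reports Fgf23 RNA was not tested.

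The homologous factors, which bind sodium channels inside cells, were 4 genes. Fgf14 had levels of -3.16, -2.26 and -1.99 and was 1.17 higher at BP40 (2.25-fold), with a ratio of 0.90 at BP10. Its other probes were above background on the control array only or on none, with measured ratios between -1.91 and -0.64, and the Fgf14 call was lost when the median of the probes was taken. Fgf13 had levels of -1.96, -3.00 and -2.61 and fell by 1.03 at BP10 (2.05-fold), with a ratio of -0.65 at BP40. The other Fgf13 probe had levels of -2.30, -2.68 and -3.30, with a ratio of -0.38 at BP10 and one just short of 2-fold lower at BP40. Both probes were thus below the control at both doses, and each came near 2-fold at another dose. The Fgf13 call was lost under 4 of 8 alternatives, among them quantile normalization and normexp. Fgf11 had levels of -2.51, -1.98 and -2.04, within 2-fold. Fgf12 was dim, with 7 of 10 spots well above background in the control and 0 on the BP arrays.

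**Figure D4:**
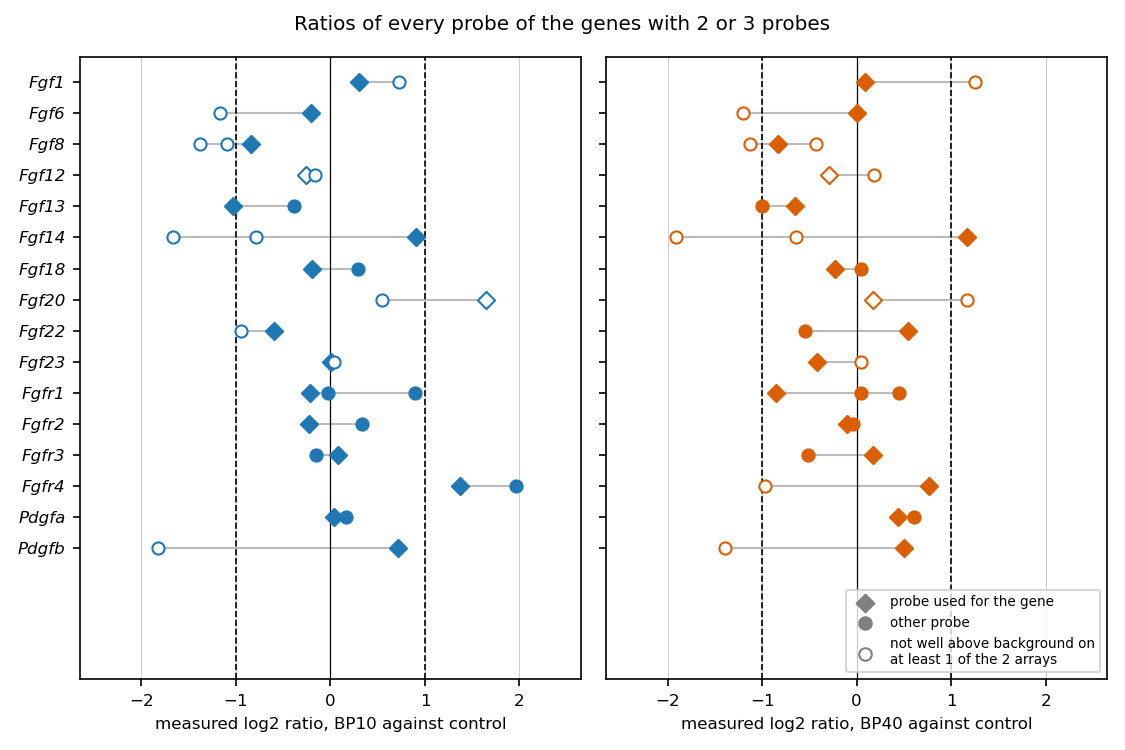
Measured log2 ratios against the control (x axes; left BP10, right BP40) of each probe of the 16 genes with 2 or 3 probes (rows); diamonds are the probes used, circles the others, and open symbols mark probes that were dim (not well above background) on 1 or both arrays. The Pdgfa probes nearly coincide, while those of Fgf14, Pdgfb and Fgfr1 lie on both sides of 0.

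Across all genes with several probes (6793 genes), the SD of the log2 ratio between probes had a median of 0.33 at BP10, 0.26 at BP40 and 0.24 for BP40 against BP10. A called ratio, at 2-fold or more, exceeds these SDs by definition, so they lend the calls no weight. On the probes used, the ratios of Fgf1, Fgf6, Fgf18, Pdgfc, Fgfr2 and Fgfr3 were smaller than them at both doses. Some member probes parted by far more at BP10, by 2.57 for a pair of Fgf14 probes and 2.54 for those of Pdgfb. In each of these pairs 1 probe was dim on the BP arrays. The SD takes in differences between probes of a gene and not those between cultures.

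Lists of other genes of these pathways were counted in the same way. Of 32 receptor adaptors and kinases, such as Frs2, Grb2 and Akt1, 0 were called in each of the 3 comparisons, beside 13.0%, 11.6% and 3.65% of all names. Their median ratio was 0.04 at BP10 and 0.17 at BP40, beside -0.23 and -0.11 for all names. Of the 18 genes on the array that respond to ERK or growth factors, 0 were called in any comparison, against the same shares of all names, and their median was -0.12 at BP10 and 0.10 at BP40. Among them Egr1, an early response gene, had ratios of -0.36 and 0.01, and Ccnd1, the cyclin that growth factors raise, 0.06 and -0.31. Under quantile normalization 1 response gene was called at BP10 and 1 adaptor or kinase at BP40. Well above background on all 3 arrays were 30 of the 32 and 18 of the 18, beside 25033 of 35451 names. In the lists below 17 of 18, 32 of 34 and 37 of 42 genes were so. The shares of all names take in more dim genes and are thus no like measure for these lists. With normexp 4.09% and 3.06% of all names were called at BP10 and BP40.

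Of 18 feedback inhibitors, 1 was called higher at each dose (5.56%, beside 2.68% and 2.59% of all names) and 0 lower (beside 10.3% and 9.00%). Dusp5, a nuclear ERK phosphatase, had levels of -4.28, -2.76 and -4.08, higher by 1.53 at BP10 and lower again by 1.33 at BP40 against BP10 on the log2 scale. Dusp1, a phosphatase of the MAP kinases, was higher by 1.02 at BP40 with a ratio of 0.69 at BP10. The Sprouty gene Spry1, a standard readout of FGF signalling, had ratios of -0.40 and -0.61, and Dusp6, another such readout, -0.12 and 0.20.

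Of 34 coreceptors, heparan sulphate genes and processing enzymes, 3 were called at BP10 (8.82%, beside 13.0% of all names) and 0 at BP40 (beside 11.6%). Gpc2, a cell surface heparan sulphate carrier, was higher by 1.81 at BP10 and lower by at least 1.47 at BP40 against BP10, and Ext2, which builds the heparan sulphate chain, was higher by 1.01 at BP10. Gpc3, another carrier, fell by 1.21 at BP10. Of 42 other growth factors and receptor tyrosine kinases, 0 were called higher against the control, 3 were lower at BP10 (7.14%, beside 10.3%) and 1 at BP40 (2.38%, beside 9.00%). Erbb3, a neuregulin receptor, was lower by at least 1.30 and at least 1.29, and Ntrk3 (-1.01) and Angpt1 (-1.30) were lower at BP10. Ntrk2, the BDNF receptor, was 1.53 higher at BP40 than at BP10.

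**Figure D5:**
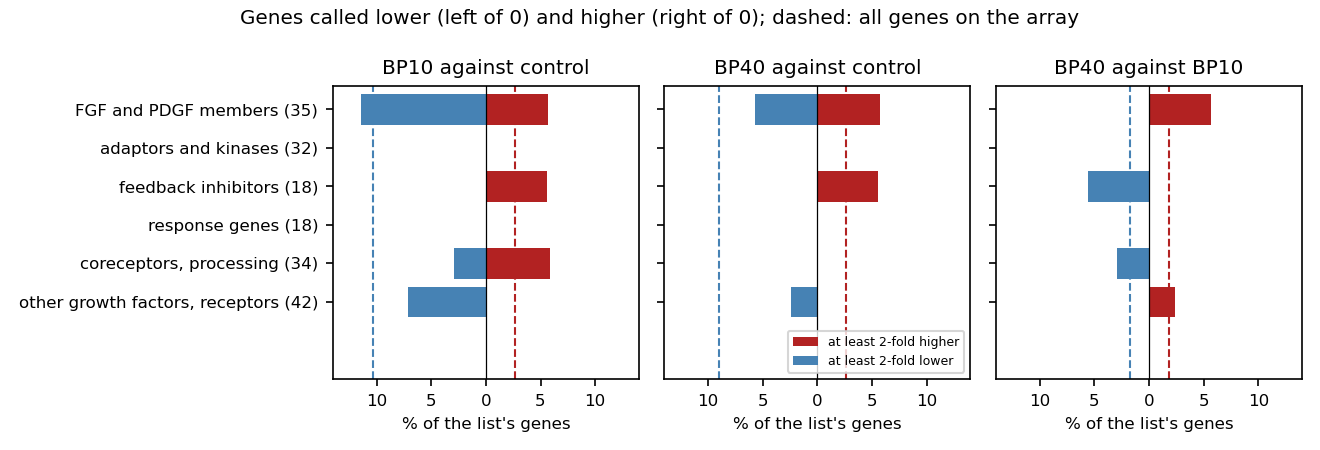
Percentage of the genes of each list (number on the array in parentheses) that were called at least 2-fold lower (left of 0) or higher (right of 0) in the 3 comparisons; dashed lines give the same shares over all 35451 gene names. The FGF and PDGF members stand near the line for lower genes at BP10, and the lists of adaptors and kinases and of response genes have 0 calls. These lists hold a smaller share of dim genes than all names do.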

How the data were processed

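For each array the authors deposited what Feature Extraction 10.5.1.1 wrote after scanning: a processed intensity per spot, corrected for background (very low values are surrogates set by the software), with no scaling from array to array. Their series table repeats these values (equal within a relative tolerance of 0.0001 for 100% of spots), with 0 unmapped columns. The study's methods name GeneSpring GX and no test for the arrays. Here log2 intensity minus the array's 75th percentile over gene spots was used. Control spots and spots marked as outliers (302 to 486 per array) were left out, and spots of a probe were averaged. Member probes were named by the scanner files. Other probes were named by the RefSeq symbol of their accession where it matched, otherwise by the scanner file. In all, 26425 probes matched, among them 51 of the 54 member probes.

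A gene was represented by its probe above background on the most arrays, and by the brightest of these. Where 1 array was dim, the ratio was bounded: the dim side was set at the larger of what the probe gave there and the dimmest probe on that array that was still well above background. The members and the lists of pathway and marker genes were chosen with earlier results of these data known. Values are given for all receptors and PDGF chains, for each FGF above background on all arrays or called, and for all genes called in a pathway list; a few others named there (Egr1, Ccnd1, Spry1, Dusp6, Klb, Kl) and the markers Lum and Postn were picked for their roles after values were seen. With 1 array per condition there was no test, and precision is limited by having 3 arrays: the SD between 10 spots of a probe had a median of 0.06 to 0.11.

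Alternatives were no filter or a stricter filter on dim probes, thresholds of 1.5-fold and 3-fold, quantile normalization, the percentile over other spots, normexp with an offset of 50, the median of a gene's probes, each probe by itself, and the series table. Python 3.11.15, numpy 2.4.6, pandas 2.3.3, and R 4.3.3 with limma 3.58.1 were used, and the code that makes calls was tested on simulated data. Coordinates are those of the scanner files (mm9); exon and UTR annotation was not used here.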

Additional observations from a re-analysis of the deposited data

Results flagged for a closer look

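The log2 ratios of Fgf22 against the control had opposite signs at the 2 doses, -0.60 at BP10 and 0.55 at BP40, neither past 2-fold, so that BP40 lay 1.15 above BP10. At BP10 the ratio was -0.21 under quantile normalization and -0.15 after subtraction by brightness, and the call between the BP arrays was lost under 2 of 8 alternatives. This difference was not tested, as each dose has a single array. The other Fgf22 probe had ratios of -0.95 (a bound) and -0.54, the same sign at both doses.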

How the results depend on the processing

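No paired analysis was possible because there is 1 array for each condition. Subtracting the median ratio of genes of like brightness, and leaving out probes with a tandem repeat of 16 or more bases, were chosen after seeing the data. Of 39 recomputed counts of members called, 31 stayed within 1.5 times the reported count. In the order BP10 and BP40 against control, then BP40 against BP10, the members called numbered 13, 13 and 7 at 1.5-fold and 2, 2 and 0 at 3-fold, since the threshold sets the count. With normexp they were 3, 4 and 1, beside 4.09%, 3.06% and 1.51% of all names called, and the cause was not tested. The median over all genes moved by 0.15 and 0.18 at the 2 doses with normexp and by 0.18 and 0.10 with quantile normalization. Of all genes called, the share that was higher was 33.0% at BP10 and 46.3% at BP40 with normexp (members higher and lower: 1 and 2, 2 and 2), and 65.5% and 62.0% after subtraction by brightness (members: 4 and 3, 3 and 3). After that subtraction 8.99% of all names were called at BP10 and 8.43% at BP40. The median of members at BP10 lay between -0.21 and 0.11, so its sign depended on the scaling. Over the ratios of single members, 708 of 765 recomputed values moved by less than the median SD between probes, and 0 calls changed sign. Calls of Fgf9, Fgf15, Fgf21 and Fgfr4, and of Fgf5 between the BP arrays, held under all 8 alternatives of scaling, background, probe summary and source that were run for single genes. Not all of the 8 could move these calls. The series table repeats the scanner values, and the other percentiles shift all ratios of a comparison alike. None of the probes used for these genes holds a repeat of 16 bases. Fgf5, Fgf9, Fgf15 and Fgf21 have a single probe, so the median of probes leaves them unchanged. The stricter filter was not among the 8, and Fgf15, dim in the control, cannot be called under it. Calls lost under normexp were Fgf5 and Fgf20 at BP10, Pdgfrl at BP40 and Fgf22 and Fgf13, and those lost with the median of probes were Fgf13, Fgf14 and Fgf22. Pdgfra passed 2-fold at BP40 under 4 of the 8 alternatives (-1.03 at the lowest). Of 180 recounts in the other lists, 48 moved past 1.5 times, where the reported counts were 0 to 3. Dim probes limit Fgf20, Fgf15, Fgf4, Fgf12 and Fgf17 to bounds in some of the comparisons.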
